A study of Homo sapiens with 16 samples.

Results

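The 57 genes described here mostly encode the machinery that carries a signal from a G protein coupled receptor into the cell: Gα, Gβ and Gγ subunits, receptor kinases and arrestins, RGS proteins, RIC8 chaperones and GPSM proteins, phospholipases C, adenylyl cyclases, IP3 receptors and protein kinases C. They were chosen as a list of gene symbols, with earlier results of these data known. The symbols were looked up in 2 deposited tables of RNA and ribosome footprints. A value was found for 43 of the 57 in at least 1 table, among 8704 genes in all. The table of complemented cells held 38 of them among 7433 genes, the table of lentiCTRL cells held 42 among 8657, and 37 stood in both tables, which share 7386 genes.

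A ligand-bound receptor makes the Gα subunit of a heterotrimer exchange GDP for GTP, and Gα and Gβγ then act on effectors. Gs stimulates adenylyl cyclase to make cAMP, Gi inhibits it, and Gq and G11 activate phospholipase Cβ, which cuts PIP2 into diacylglycerol for protein kinase C and IP3 for the calcium channels of the endoplasmic reticulum. RGS proteins speed GTP hydrolysis by Gα, and receptor kinases with arrestins switch the receptor off. In gut epithelium these routes control secretion, proliferation and motility.

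The cells were HCT-116, a human colorectal carcinoma line, carrying OsTIR1 under a CMV promoter and endogenous DDX3X fused to mini-AID, a tag that auxin (indole-3-acetic acid, IAA) turns into a signal for degradation. DDX3X and its Y-linked paralogue DDX3Y are DEAD-box helicases with a role in translation initiation. The complemented cells were lentiDDX3Y cells and lentiDDX3X cells, which express FLAG-tagged DDX3Y or DDX3X from a lentivirus, each after 500 µM IAA for 48 h. The lentiCTRL cells carry the lentiCTRL control construct and were given 500 µM IAA for 48 h or DMSO, the solvent. Each of the 4 conditions had 2 replicates by ribosome profiling and by RNA-seq, 16 libraries in all, and all cells shared the degron and OsTIR1. The degron line was grown from picked single colonies, and cells expressing a DDX3 transgene were sorted for the mCherry2 of the vector.

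The only values used are base means, the authors' mean of normalised counts over the coding sequence, 1 for RNA and 1 for footprints per gene and table. Each covers 4 libraries of an assay and carries no replicate spread, so no test was possible and every difference below is a description. The complemented value averages lentiDDX3Y and lentiDDX3X cells, and the lentiCTRL value averages IAA and DMSO cells. Degron state, lentiviral line and the separate normalisation of the 2 tables therefore cannot be told apart in any comparison between them. Libraries were of bulk cells, in which fewer cells with an RNA and less of it per cell cannot be told apart.

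The labels were checked on genes outside the list. DDX3Y had a base mean of 3526 for RNA and 175 for footprints in complemented cells and was not listed in the lentiCTRL table, and DDX3X had RNA base means of 10518 in complemented and 6774 in lentiCTRL cells. Of 14 markers of colorectal epithelium, 10 were present in each table, including EPCAM, KRT8, KRT18 and CDH1, while KRT20, CDX1, VIL1 and LGALS4 were not listed in either. None of 7 blood and 4 endothelium markers was listed in either table. Of 7 fibroblast and muscle markers, 0 stood in the complemented and 1 in the lentiCTRL table, and of 5 markers of neurons and glia 1 stood in each. Summed base means were 15950128 for RNA and 734724 for footprints in complemented cells, against 15611333 and 604809 in lentiCTRL cells, so footprints set the precision.

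Several members are close paralogues, and their first 30 coding bases are shown so that the family members can be compared. They come from the canonical transcripts of GENCODE v44 on GRCh38, with the start codon in capitals. The first base of the start codon lies at 1825453 on chromosome 1, minus strand, for GNB1 and at 100676266 on chromosome 7, plus strand, for GNB2.
GNB1: ATGagtgagcttgaccagttacggcaggag
GNB2: ATGagtgagctggagcaactgagacaggag
These Gβ starts were identical at 23 of 30 bases, and 5 of the 7 differences fell on the third base of a codon. The Gi alpha starts lie on chromosome 7 at 80135161 for GNAI1, chromosome 3 at 50236336 for GNAI2 and chromosome 1 at 109548721 for GNAI3, all on the plus strand.
GNAI1: ATGggctgcacgctgagcgccgaggacaag
GNAI2: ATGggctgcaccgtgagcgccgaggacaag
GNAI3: ATGggctgcacgttgagcgccgaagacaag
GNAI1 matched GNAI2 and GNAI3 at 28 of 30 bases each. The Gq class starts lie on chromosome 9 at 78031235, minus strand, for GNAQ and on chromosome 19 at 3094652, plus strand, for GNA11.
GNAQ: ATGactctggagtccatcatggcgtgctgc
GNA11: ATGactctggagtccatgatggcgtgttgc
They were identical at 28 of 30 bases. Over whole coding sequences, few stretches as long as a counted read were the same in another gene: GNB1 and GNB2 each shared 2.01% of their 25-base windows with another gene of the tables, GNAI3 shared 1.83%, and the other 40 members with a value shared under 1%. How the authors treated reads that fit several genes is not given in the sources used here, so values of these paralogues are uncertain to that extent.

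Of the listed genes, 14 had no value in either table: GNAZ, GNA12, GNB4, GNB1L, GNG4, GNG7, GNG11, GRK3, GRK4, GRK5, RGS2, PLCE1, PLCH1 and ADCY9. GNG10, RGS14, RGS19, PLCB1 and ITPR1 stood in the lentiCTRL table only, with footprint base means between 12.02 and 12.85. RGS3 stood in the complemented table only, with 28.5. The lowest footprint base mean was just above 20 in the complemented table and 10 in the lentiCTRL table. A missing row therefore marks a filter and gives no size for a difference between the cells. RGS3, at 28.5, lay above both limits, and its level in lentiCTRL cells is not known here. By the same token, a member at 20 or less in lentiCTRL cells could enter the comparison only if its footprint base mean was higher in complemented cells.

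As a group the members had RNA levels near those of other genes and few footprints per RNA. The median RNA base mean of members was 1259 in complemented cells, against 1084 over all genes of that table, and 1001 in lentiCTRL cells, against 868. Footprint base means had a median of 45.0 in complemented cells (all genes 52.7) and 26.6 in lentiCTRL cells (all genes 34.1). The ratio of both, written as footprints per 100 RNA, is a measure of translation per message. Coding length cancels in this ratio if both kinds of read are spread evenly along the coding sequence, which was not examined. Its median over the members was 3.94 in complemented cells, against 5.56 over all genes, and 2.86 in lentiCTRL cells, against 4.57. Of the members, 30 of 38 in complemented cells and 35 of 42 in lentiCTRL cells lay below the median gene of their table. The lowest 25% of all genes held 16 of 38 members in complemented and 20 of 42 in lentiCTRL cells, and the highest 25% held 2 of 38 in complemented and 4 of 42 in lentiCTRL cells.

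**Figure D1:**
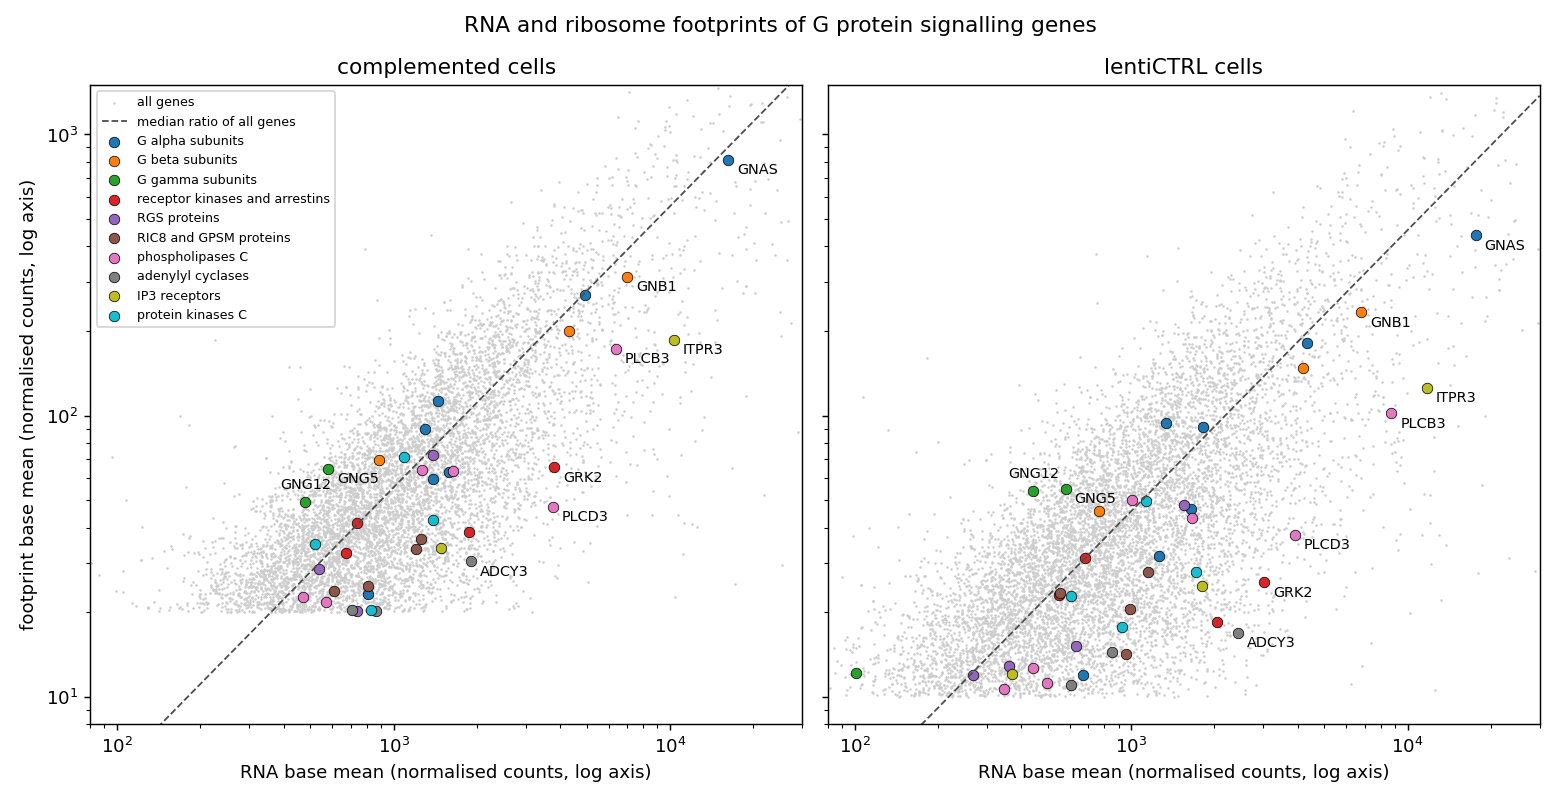
RNA base mean (horizontal, normalised counts, log axis) against footprint base mean (vertical, normalised counts, log axis) for each member, coloured by role, and for all genes in grey, in complemented cells (left) and lentiCTRL cells (right); the dashed line is the median ratio of all genes. GNAS, at 811 footprints in complemented and 439 in lentiCTRL cells, is the highest member, and most members lie below the dashed line.

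The Gα subunits were led by GNAS, which encodes Gsα (chromosome 20, 58839718 to 58911192 on the plus strand). Its RNA base mean was 16248 in complemented and 17609 in lentiCTRL cells, and its footprint base mean 811 in complemented and 439 in lentiCTRL cells. Per kilobase of the canonical coding sequence, GNAS made up 54.4% of the summed Gα footprints in complemented cells and 46.6% in lentiCTRL cells. GNAI2, an inhibitory Gα, was the next with 19.9% in complemented and 21.3% in lentiCTRL cells. GNAI3 and GNAI1, the other Gi subunits, took 8.44% and 6.71% in complemented cells, against 11.1% and 10.7% in lentiCTRL cells. GNA13 and the Gq class pair GNA11 and GNAQ had the smallest shares: 4.43%, 4.39% and 1.71% in complemented cells, against 5.17%, 3.69% and 1.399% in lentiCTRL cells. The Gs subunit thus had the most footprints per kilobase of the 7 Gα genes in both tables and GNAQ the fewest.

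Ribosome load per message differed between the Gα genes. GNAI3 had 7.79 footprints per 100 RNA in complemented and 7.05 in lentiCTRL cells, the highest of the 7. GNAQ was the lowest, with 2.86 in complemented and 1.79 in lentiCTRL cells. GNAS carried 4.99 in complemented and 2.49 in lentiCTRL cells. In rank among all genes of its table, GNAS stood at the 42.5 percentile in complemented and the 22.0 percentile in lentiCTRL cells.

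Gβ and Gγ form 1 tight unit in the cell. GNB1 had RNA base means of 6986 in complemented and 6796 in lentiCTRL cells, with 312 footprints in complemented and 233 in lentiCTRL cells. GNB2 had RNA base means of 4305 in complemented and 4166 in lentiCTRL cells, with 199.8 footprints in complemented and 147 in lentiCTRL cells. GNB5, the Gβ that pairs with the R7 class of RGS proteins, had 69.5 footprints in complemented and 45.7 in lentiCTRL cells. The 3 Gβ genes kept their order in both tables, and GNB1 held 54.6% of their footprints per kilobase in complemented cells and 55.5% in lentiCTRL cells. Among the Gγ genes, GNG5 had 64.9 footprints in complemented and 55.1 in lentiCTRL cells. GNG12 had 49.5 in complemented and 54.0 in lentiCTRL cells. Both coding sequences are short, and per kilobase the sums over detected genes were 1262 for Gα, 560.2 for Gβ and 547 for Gγ in complemented cells, against 797, 412 and 579.8 in lentiCTRL cells, where GNG10 adds 59.9. The Gγ genes had the most footprints per 100 RNA of all members with a value: 11.2 for GNG5 and 10.3 for GNG12 in complemented cells, against 9.501 for GNG5, 12.2 for GNG12 and 12.1 for GNG10 in lentiCTRL cells.

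The receptor kinases stood at the other end. GRK2, the widely expressed kinase that phosphorylates active receptors (chromosome 11, 67266473 to 67286556, plus strand), had RNA base means of 3811 in complemented and 3023 in lentiCTRL cells but only 65.5 footprints in complemented and 25.6 in lentiCTRL cells. That is 1.72 footprints per 100 RNA in complemented and 0.846 in lentiCTRL cells, at the 4.53 percentile of all genes in complemented and the 2.31 percentile in lentiCTRL cells. GRK6, its relative (chromosome 5, 177403204 to 177442901, plus strand), had 38.7 footprints in complemented and 18.5 in lentiCTRL cells, on RNA base means of 1869 in complemented and 2047 in lentiCTRL cells. Arrestins bind phosphorylated receptors, and their messages were nearer the typical gene. ARRB1 had 5.64 footprints per 100 RNA in complemented and 4.21 in lentiCTRL cells, and ARRB2 had 4.81 in complemented and 4.57 in lentiCTRL cells.

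The RGS genes had modest levels. RGS10 led them, with 72.2 footprints in complemented and 48.3 in lentiCTRL cells. RGS12, a larger RGS protein with a GoLoco motif, had 20.3 in complemented and 15.1 in lentiCTRL cells. RIC8A and RIC8B, chaperones and exchange factors for Gα, had 36.4 and 23.9 footprints in complemented cells, against 27.9 and 23.5 in lentiCTRL cells. GPSM1 and GPSM2 bind GDP-bound Giα, and GPSM2 helps to orient the mitotic spindle. GPSM2 had 33.6 footprints in complemented and 14.2 in lentiCTRL cells, and GPSM1 had 24.7 in complemented and 20.6 in lentiCTRL cells.

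Several effectors had high RNA and low footprints per RNA. PLCB3, a Gq and Gβγ target (chromosome 11, 64251530 to 64269150, plus strand), had RNA base means of 6361 in complemented and 8726 in lentiCTRL cells, with 173 footprints in complemented and 102 in lentiCTRL cells. PLCD3, a phospholipase C of the calcium-responsive delta class, had 1.26 footprints per 100 RNA in complemented cells, the lowest of the members there, against 0.965 in lentiCTRL cells. ADCY3, an adenylyl cyclase (chromosome 2, 24819169 to 24920237, minus strand), had 1.60 in complemented cells, against 0.693 in lentiCTRL cells, the lowest of the members there. The tyrosine-kinase-regulated PLCG1 and PLCG2 were closer to other genes: 3.86 and 5.06 footprints per 100 RNA in complemented cells, against 2.61 and 4.98 in lentiCTRL cells. PLCB4 and PLCD1 had 3.81 and 4.85 in complemented cells, against 2.26 and 3.07 in lentiCTRL cells, so the classes of phospholipase C overlapped. ITPR3, the main IP3 receptor RNA here, had RNA base means of 10302 in complemented and 11698 in lentiCTRL cells, with 186 footprints in complemented and 126 in lentiCTRL cells. ITPR2 had 33.99 footprints in complemented and 24.8 in lentiCTRL cells. Of the protein kinases C, which diacylglycerol activates in the case of PRKCA and PRKCD but not of the atypical PRKCI and PRKCZ, PRKCD had the most footprints, 71.5 in complemented and 49.8 in lentiCTRL cells. PRKCA and PRKCD had 6.73 and 6.56 footprints per 100 RNA in complemented cells, above the atypical PRKCZ and PRKCI at 3.07 and 2.46; in lentiCTRL cells the 4 values were 3.77, 4.42, 1.61 and 1.92.

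**Figure D2:**
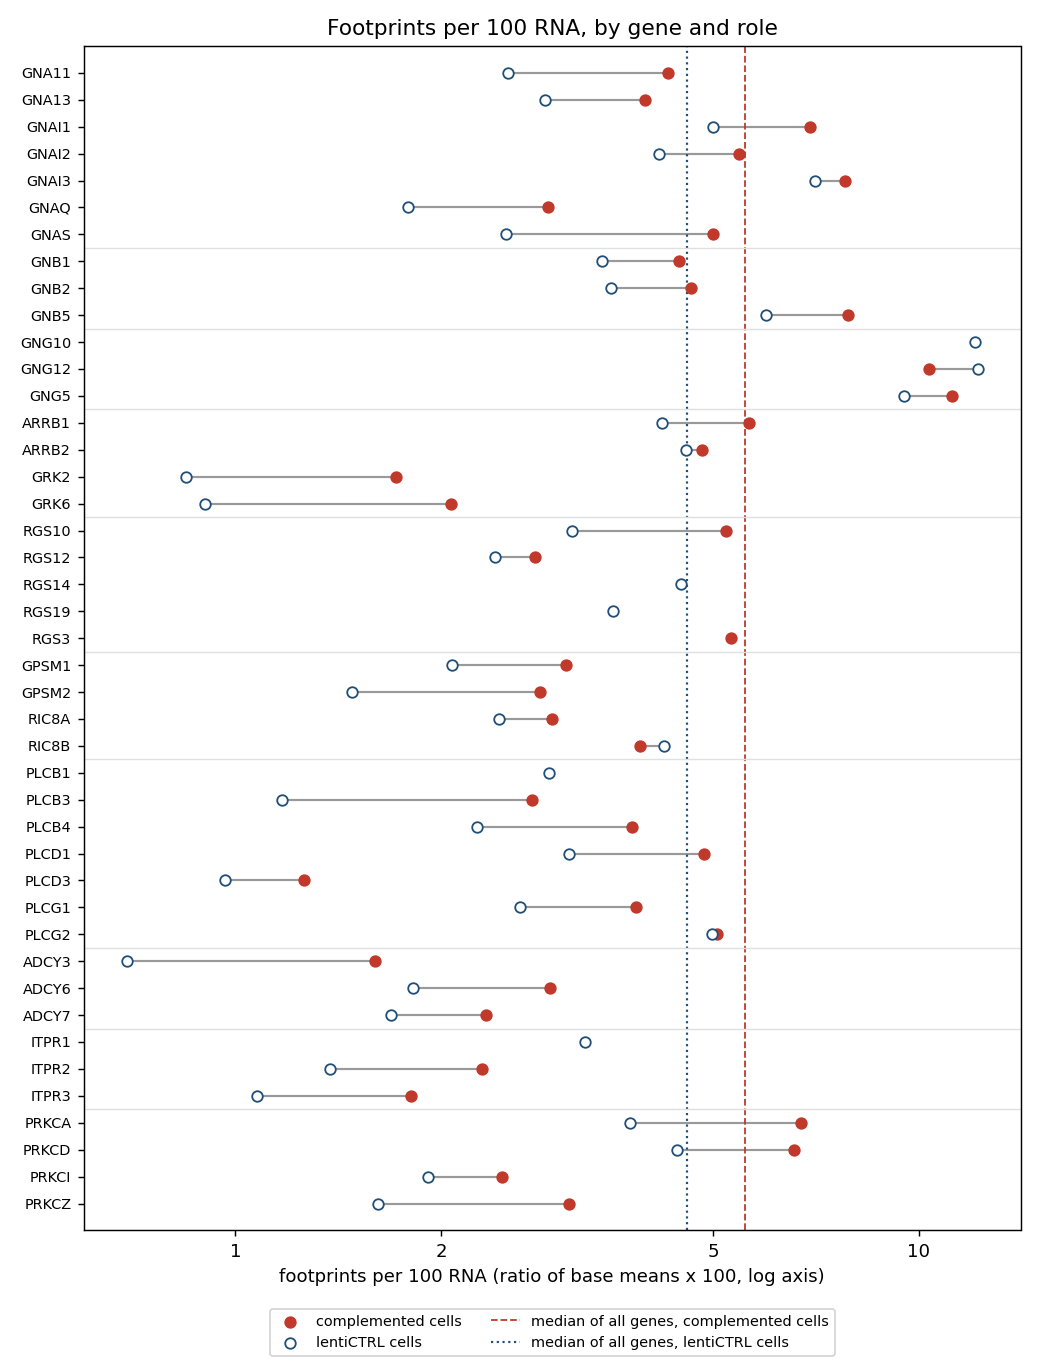
Footprints per 100 RNA (horizontal, ratio of base means, log axis) of each of the 43 members with a value, grouped by role, in complemented cells (filled red) and lentiCTRL cells (open blue); vertical lines are the medians of all genes, 5.56 in complemented (dashed) and 4.57 in lentiCTRL cells (dotted). Most members lie left of the line of their own table, with GRK2, GRK6, PLCD3, ADCY3 and ITPR3 far to the left and the Gγ genes far to the right.

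For the 37 members in both tables, the log2 ratio of complemented over lentiCTRL cells was taken for RNA, for footprints and for footprints per RNA. Each was centred on the median of the 7386 shared genes, which was 0.12 for RNA and 0.37 for footprints; footprints per RNA then had a remaining median of -0.03, and all differences below are relative to these medians. The main pattern was that footprints per RNA were higher in complemented cells for most members. The median difference was 0.34, from -0.46 for GNG12 to 1.00 for PLCB3, with quartiles of 0.16 and 0.54. It was above 0 in 31 of 37 members. A difference of more than 0.5 on the log2 scale toward complemented cells was seen for 13 members (35.1%), a size reached by 10.3% of all genes. In the opposite direction it was seen for 0 members and 1.75% of all genes.

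RNA differed less. The median RNA difference of the members was -0.10 relative to all genes; without centring it was 0.019, against 0.12 over all genes, so the members lay below other genes by the same amount. Past 0.5 there were 0 members higher (3.52% of all genes) and 2 lower (3.56% of all genes), GNAI1 at -0.61 and PLCB3 at -0.58. Footprints themselves had a median difference of 0.18, with 9 members higher by more than 0.5 (7.84% of all genes) and 0 lower (4.13% of all genes). Footprints were higher and RNA lower than the typical gene in 15 of 37 members (40.5%), a combination shown by 19.5% of all genes. The reverse combination was shown by 3 members (8.11%) and by 19.5% of all genes.

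The members with the largest differences spanned several roles. PLCB3 differed by 1.00 in footprints per RNA, made up of -0.58 in RNA and 0.40 in footprints. ADCY3 differed by 0.99, with -0.48 in RNA and 0.48 in footprints. The 2 receptor kinases followed: GRK6 at 0.98, with footprints at 0.70, and GRK2 at 0.81, with footprints at 0.99. In GRK2 the RNA was also higher, by 0.21, unlike in the other 3. ADCY3, GRK2, GRK6 and PLCB3 had low footprints per 100 RNA in lentiCTRL cells (0.693, 0.846, 0.903 and 1.17). The difference is taken from that same value, so both are partly 1 observation. PLCD3, at 0.965 there, differed by only 0.17. A comparison with genes of like lentiCTRL ratio was not made. GNAS differed by 0.79, with 0.52 in footprints and -0.24 in RNA. PRKCZ (0.71), GPSM2 (0.70), PRKCA (0.62) and GNA11 (0.56) came next. PLCB4, ITPR3, RGS10 and ITPR2 lay just past 0.5, between 0.52 and 0.54, and GNAQ (0.46) and ADCY6 (0.45) just short of it. Of the 13 members past 0.5, ADCY3, GRK6, GPSM2 and PLCB4 had 20 or less footprints in lentiCTRL cells. Before centring, they could enter only with higher footprints in complemented cells. Centring takes 0.37 from every footprint difference, so the filter alone does not fix the sign of a centred value. PRKCI, at 17.8 footprints in lentiCTRL cells, lay at -0.17 in centred footprints.

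Other members lay closer to the typical gene, or below it. The 3 Gβ genes lay close together, at 0.16 for GNB1, 0.17 for GNB2 and 0.18 for GNB5. These are the 67.5, 68.7 and 69.4 percentiles of all genes. The Gi subunits GNAI1, GNAI2 and GNAI3 lay at 0.26, 0.17 and -0.07. GNG12 had the lowest value, -0.46, with footprints at -0.49 and RNA at -0.01. RIC8B followed at -0.34, PLCG2 at -0.19, ARRB2 at -0.14 and RGS12 at -0.02. Their paralogues RIC8A, PLCG1 and ARRB1 lay at 0.04, 0.35 and 0.21, with counting errors between 0.14 and 0.21 for all 6 of these genes. Without centring, which adds 0.22 to every gene alike, GNAI3, PLCG2, ARRB2 and RGS12 had values above 0 and GNG12 and RIC8B below 0, so the negative values of the first 4 hold only relative to other genes.

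The base means set a lower bound on the error. If the 4 libraries behind each base mean are taken as Poisson counts, the counting error of a member's difference in footprints per RNA was 0.04 for GNAS, 0.09 for PLCB3, 0.17 for GRK2, 0.21 for GRK6 and 0.22 for ADCY3, with a median of 0.17 and a highest value of 0.27. This error leaves out the spread between replicates. The difference exceeded 2 counting errors in 19 of 37 members, 18 of them higher and only GNG12 lower. Over all 7386 genes the difference exceeded 2 counting errors in 2569, of which 1393 were higher and 1176 lower.

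**Figure D3:**
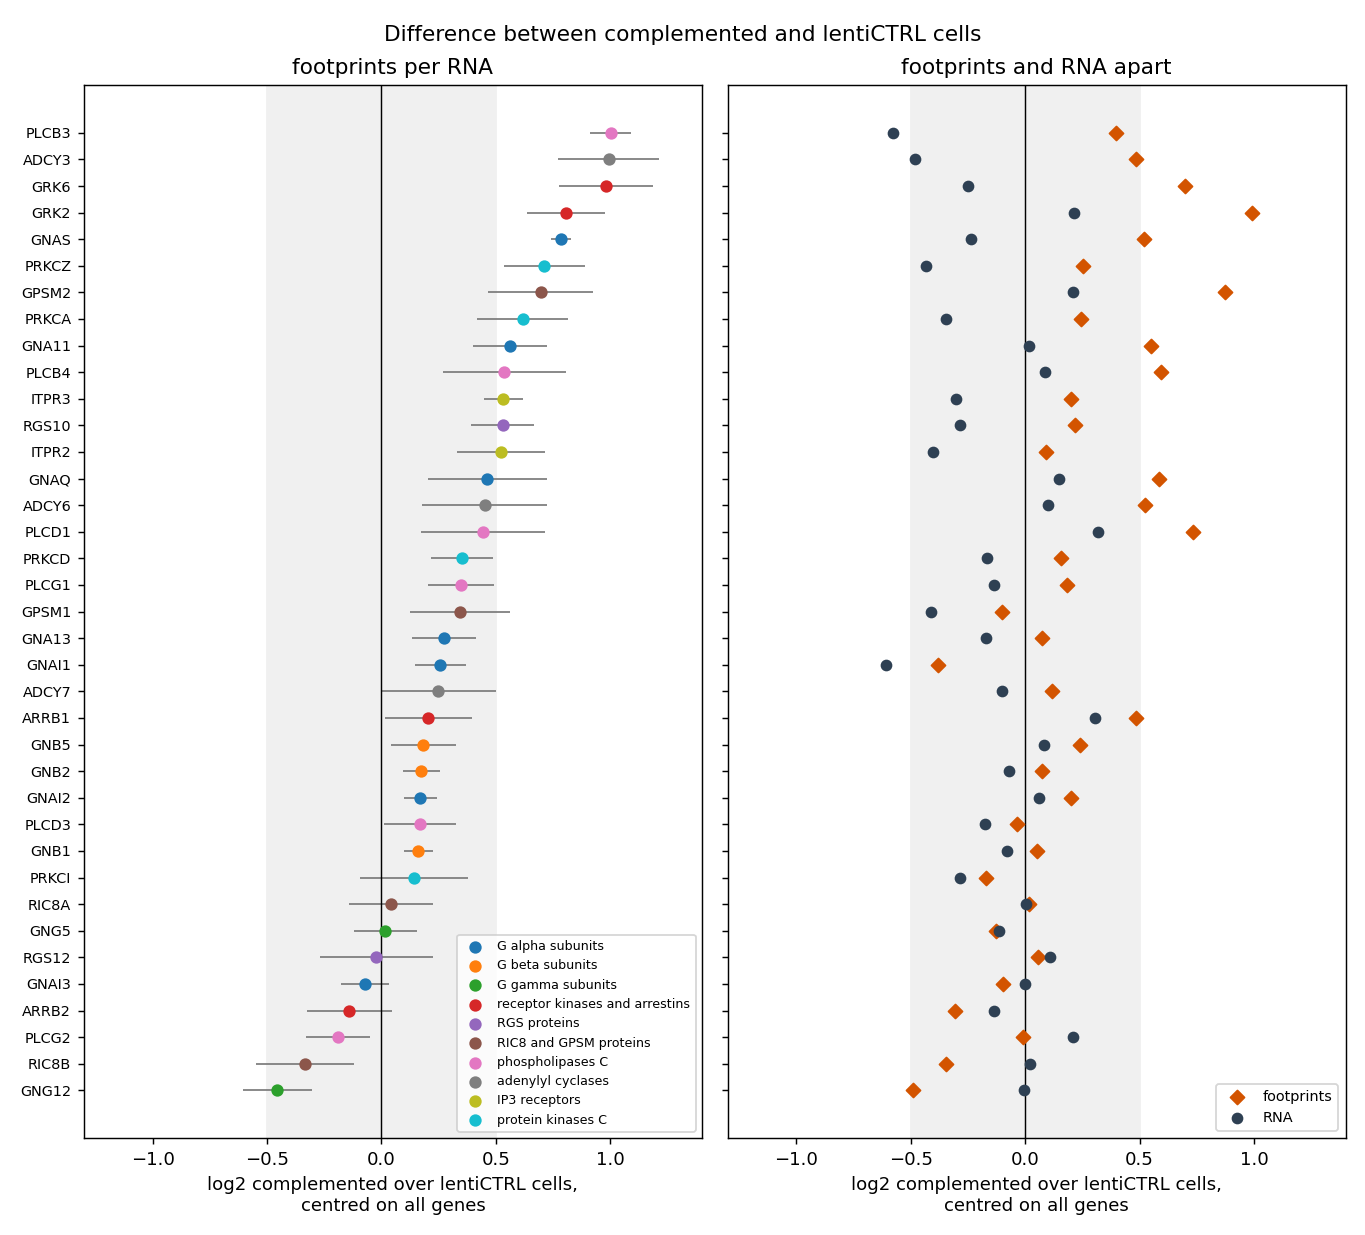
Difference between complemented and lentiCTRL cells (log2, centred on all genes) for the 37 members in both tables, sorted; left, footprints per RNA with bars of 1 counting error and points coloured by role; right, footprints (orange diamonds) and RNA (dark circles). The grey band spans -0.5 to 0.5. PLCB3, ADCY3 and GRK6 top the list near 1.00 and GNG12 is lowest at -0.46.

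The size of the difference varied with the level in all genes. Over 4 equal bins of footprint level, the median difference in footprints per RNA of all genes was 0.13 in the lowest and -0.10 in the highest, and these bins held 12 and 8 members. The 10 members at 20 or less footprints in lentiCTRL cells, which the filter of the complemented table selected for higher uncentred footprints, had a median of 0.46, against 0.28 over the 1111 such genes. The 27 members above 20 in both tables had a median of 0.26, and 9 of them (33.3%) passed 0.5 toward complemented cells, against -0.03 and 7.20% over 6275 genes. The 6 members above 100 in both, GNAS, GNAI2, GNB1, GNB2, PLCB3 and ITPR3, had a median of 0.35 and 3 past 0.5, against -0.12 and 2.87% of 1289 genes. Among these 6, PLCB3, GNAS and ITPR3 lay at 1.00, 0.79 and 0.53, and GNAI2, GNB2 and GNB1 at 0.17, 0.17 and 0.16. None of the 6 lay near their median, and the GC content of their 5′ UTRs is not considered in this comparison.

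The members also have GC-rich 5′ UTRs. The canonical transcripts of the 43 members with a value had a median 5′ UTR GC content of 77.4%, against 68.5% over all genes, and 25 of 43 lay in the highest 25%. The 5′ UTRs of GNA11 (87.9%), GNAS (86.6%), GRK2 (86.3%) and ADCY6 (86.2%) were the richest. At the low end stood PLCB4 (54.3%), GNB5 (55.1%), GPSM2 (55.7%) and GNG12 (58.5%). Their 5′ UTRs were also long, with a median of 220 nt (all genes 121 nt). Among all genes the median difference in footprints per RNA went with this property: it was -0.12 in the lowest of 10 bins of 5′ UTR GC content and 0.31 in the highest. Of the 37 members in both tables, 14 fell into that highest bin and 7 into the one before it. Those 21 members had a median difference of 0.46, with 10 past 0.5, against 0.24 and 362 past 0.5 for the 1448 genes of these bins. The 8 members in the 5 lowest bins had a median of 0.11, with 2 past 0.5, against -0.09 and 4.56% for 3619 genes. Those 2, GPSM2 and PLCB4, were at 20 or less footprints in lentiCTRL cells, as were RGS12 and ADCY7. In the high bins ADCY3 and GRK6 past 0.5 were too. All of these could enter only with higher footprints, before centring, in complemented cells. The low-bin members above 20, GNB5, RIC8A, GNG5 and GNG12, lay at 0.18, 0.04, 0.02 and -0.46.

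Set beside genes of like 5′ UTR GC content, the difference was smaller. Each member's difference minus the median of its bin had a median of 0.17, about 0 being the value for all genes by construction, and was above 0 in 27 members and below in 10. GPSM2 and ADCY3 stood 0.81 above their bins, PLCB3 0.69, GRK6 0.67, PLCB4 0.65 and ITPR2 0.52; these 6 of 37 passed 0.5, as did 7.81% of all 7239 genes with a 5′ UTR. Of these, GPSM2, ADCY3, GRK6 and PLCB4 were among the 10 members that the filter selected for higher uncentred footprints. Of the 27 members above 20 footprints in both tables, PLCB3 and ITPR2 passed 0.5 (7.41%), near the 5.11% of 6145 such genes, while their median was 0.17, against -0.03. GPSM2 and PLCB4 reached this with 5′ UTRs of below-median GC content. GNAS and GRK2 stood 0.48 and 0.50 above their bin, which holds the GC-richest genes. GNAI2, GNB2 and PLCD3, with 81.1%, 82.1% and 83.8% GC, stood 0.14, 0.13 and 0.14 below theirs, and RIC8B 0.52 below.

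Across the 37 members, 5′ UTR GC content and the difference in footprints per RNA had a Pearson r of 0.39 and a Spearman coefficient of 0.47, and across all 7239 genes 0.36 and 0.37. For the GC content of the coding sequence the values were 0.25 and 0.20 over members, and 0.001 and -0.02 over all genes. These are descriptions across genes, which share libraries and depth and are not independent.

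**Figure D4:**
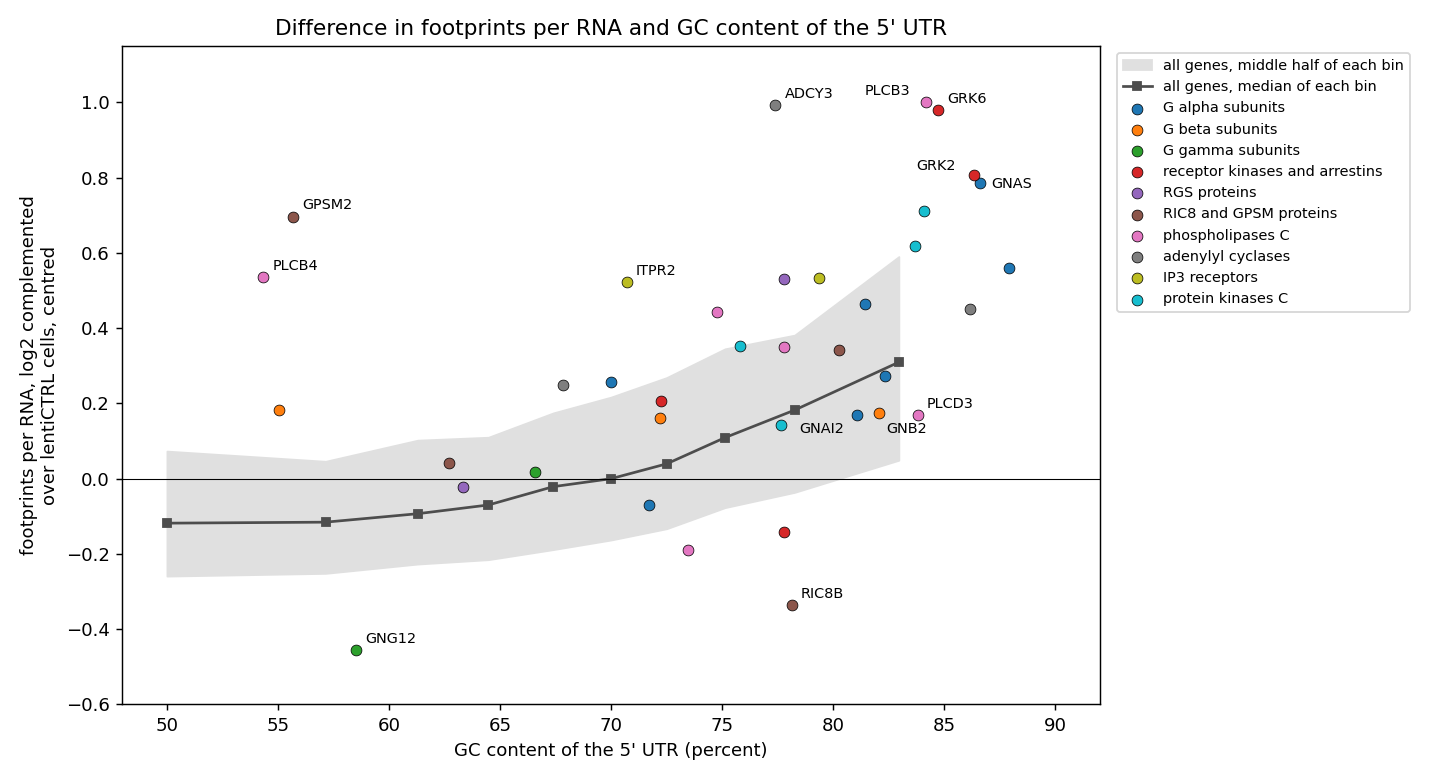
GC content of the 5′ UTR (horizontal, percent) against the difference in footprints per RNA (vertical, log2 complemented over lentiCTRL cells, centred on all genes) for the 37 members, coloured by role; squares and the line are the medians of 10 bins of all genes, and the band is the middle 50% of each bin. The line climbs to 0.31 at the GC-rich end, PLCB3, ADCY3 and GRK6 lie far above it, and RIC8B and GNG12 lie below.

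Further genes of the same routes were looked at in 3 lists. Of 40 genes of phosphoinositide, diacylglycerol and calcium handling, 29 stood in both tables, with a median difference of 0.27 in footprints per RNA and 10 past 0.5 toward complemented cells (34.5%, against 10.3% of all genes), among them STIM1, the calcium sensor of the endoplasmic reticulum (1.11), and PIP5K1C, which makes PIP2 (1.04). Of 28 cAMP effectors and phosphodiesterases, 21 did, with a median of 0.16 and 7 past 0.5 (33.3%), including CRTC3 (1.00) and the protein kinase A subunit PRKAR2A (0.97). Of 50 receptors, 19 did, with a median of 0.12 and 4 past 0.5 (21.1%), and CELSR1 was highest (0.88). Some genes past 0.5 in these lists, among them PIP5K1C, DGKD, PRKAR2B and GPR161, were at 20 or less footprints in lentiCTRL cells. They could enter only with higher footprints, before centring, in complemented cells. Among all genes at 20 or less there, 28.1% passed 0.5 toward complemented cells. Beside genes of like 5′ UTR GC content the medians were 0.17 for phosphoinositide and calcium genes, 0.16 for cAMP genes and 0.0093 for the 18 receptors with a 5′ UTR. No gene of the 3 lists was past 0.5 in the other direction, a size reached by only 1.75% of all genes, so few or none would be looked for in lists this short. The lowest were GPRC5A (-0.36), CDIPT (-0.31) and GPR107 (-0.28). The 10 epithelial markers had a median difference of -0.13 and included 1 past 0.5, TJP1 at 0.73. Their median footprint base mean in lentiCTRL cells was 227, against 26.6 for the members, so they are not matched in level.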

How the data were processed

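Ribosome profiling and RNA-seq libraries of 4 conditions with 2 replicates each were analysed from 2 deposited tables. Per the methods of the study, the authors removed adapters and merged UMI duplicates, filtered out reads from rRNA and other small structured RNAs, aligned what was left to hg38 and used Ribo-seQC to count coding-sequence reads of over 24 nt. STAR 2.6.0a, Bowtie2 and cutadapt are named in the submitters' processing notes. Which annotation release was used is not given in the sources used here. Base means, as deposited by the authors, are means of normalised counts over 4 libraries per assay. The tables' other columns hold the authors' own fold changes, adjusted p-values and gene classes, which were not used; 0 columns of single libraries were left out. The total depth of each library was not analysed here.

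Members and lists were chosen with earlier results of these data known. Members were matched by symbol, any of them could be named, and of other lists at most the 3 highest and 3 lowest. RNA, footprints and footprints per RNA were compared as log2 ratios without a pseudocount, centred on the median of shared genes, with Poisson counting errors from 4 times each base mean. The comparison was tested on simulated counts. 5′ UTRs of at least 10 nt came from GENCODE v44. Python 3.11.15, numpy 2.4.6, pandas 2.3.3 and scipy 1.17.1 were used. Alternatives were limits on footprint base means, other centrings, a pseudocount of 1, means, other fold limits and other treatments of GC content. Some items of a further list are not reported here.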

Additional observations from a re-analysis of the deposited data

How the results depend on the processing

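No paired analysis was possible because the tables hold no value per library, and no replicate could be left out for the same reason. The members' median log2 footprints per RNA, -4.67 in complemented and -5.13 in lentiCTRL cells, became -4.43 in complemented and -5.095 in lentiCTRL cells above 100 footprints, -4.70 in complemented and -5.17 in lentiCTRL cells as means, and -4.86 in lentiCTRL cells above 20. The median difference in footprints per RNA, 0.34, was 0.26 above 20 footprints in both tables, 0.46 when centred on genes above 100 and 0.56 without centring; 0.26 was also found for the 19 members with a geometric mean above 40, a limit chosen after seeing the data that treats both tables alike. The median RNA difference, -0.10, was -0.14 and -0.16 above 20 and 100 footprints, -0.069 when centred on totals, -0.15 when centred on genes above 100 and 0.019, of opposite sign, without centring; other centrings move all genes alike, whose median was -0.047 when centred on genes above 100 and 0.12 without centring, so the members' distance from other genes stayed as it was. The median footprint difference, 0.18, was 0.091 above 20 footprints, 0.23 centred on totals, 0.26 centred on genes above 100 and 0.55 without centring. With a limit of 1 in place of 0.5, 1 member was higher (1.00% of all genes), and with 0.3, 2 were lower (10.6% of all genes). Beside genes of like GC content, 0.17 became 0.29 with the longest 5′ UTR of each gene and stayed 0.17 above 20 footprints in both tables, a limit added after seeing the data. Of 36 alternatives, 15 moved their median by less than its counting error or their count by at most 1.5 times. Replicate error is not covered by any of these values.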
